A study of Mus musculus with 9 samples.

Results

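The 10 genes described here are the FOXO transcription factor genes Foxo1, Foxo3 and Foxo4 and 7 genes that FOXO factors raise when PI3K-AKT signaling is low: Irs1, Irs2, Insr, Pik3ip1, Ccng2, Txnip and Sesn3. They were picked by symbol, with earlier results of these data known, and all 10 were found among the 15552 genes of the count table. All 10 also had enough counts to be tested, as 11373 of the 15552 did. RNA came from MyC-CaP cells, a line derived from a prostate tumor of a mouse carrying a MYC transgene. The cells were kept for 6 to 12 h in medium free of serum and calcium, and recombinant NRG1, which binds the receptor HER3, was then added at 15 ng/mL. RNA was taken at 0, 12 and 24 h from 3 biological replicates each, and the 0 h samples are starved cells at the start of treatment. Because libraries kept for 12 or 24 h without NRG1 were not analysed here, time with NRG1 and further time in the starvation medium cannot be told apart, and every sample comes from 1 cell line.

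HER2/HER3 dimers recruit PI3K, which activates the kinase AKT. AKT phosphorylates FOXO proteins, which are then bound by 14-3-3 proteins and held in the cytoplasm. When growth factors are scarce, FOXO proteins enter the nucleus and switch on genes that slow the cell cycle, limit glucose uptake, restrain mTORC1 and, through the insulin receptor and its adaptors, make cells more sensitive to the next growth factor signal. This control acts on the FOXO proteins, so FOXO mRNA levels do not measure it, and the RNA of FOXO target genes is the nearest readout in these data.

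The libraries held between 28467089 and 39239760 counts. Values are given in CPM, counts scaled by the TMM-adjusted library size, with the mean ± SD over 3 libraries. Chi-square values per degree of freedom between replicates ran from 3.81 to 10.5, and the 2 highest, 10.3 and 10.5, both involved 12 h replicate 3. Of the 8 epithelial and prostate markers, 7 were measured. Krt19 lay between 80.2 and 144 CPM in all libraries, Hoxb13 between 81.3 and 106 and Krt8 between 17.3 and 26.2. Krt18 did not exceed 0.491 CPM, Cdh1 0.142 and Epcam 0.0897, so these 3 defining epithelial markers were absent or nearly so in cells labelled epithelial-like. Markers of other cell types were low: 6 stromal genes summed to between 15.3 and 18 CPM, nearly all of it Pdgfra, 4 immune genes to at most 1.05 and 3 endothelial genes to at most 0.299. The stromal sums were 16.3 to 17.9 CPM at 0 h, 15.3 to 18 at 12 h and 15.7 to 17.9 at 24 h, the immune sums 0.390 to 0.868, 0.708 to 0.914 and 0.459 to 1.05, and the endothelial sums 0.145 to 0.213, 0 to 0.0838 and 0.164 to 0.299. Mitochondrial genes took 1.41% to 1.5% of counts at 0 h, 1.12% to 1.18% at 12 h and 1.21% to 1.36% at 24 h, and the part of this in the results was not tested.

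To place the 10 genes in the starved cell, their levels at 0 h were divided by exon length, in CPM per kb. Txnip, which binds thioredoxin and promotes removal of glucose transporters from the cell surface, was the highest at 179 ± 20.3 CPM per kb (SD, n = 3), above 98.1% of the tested genes. Ccng2, an atypical cyclin that holds cells out of the cycle, followed at 79.0 ± 3.62 (95.4%). The FOXO factors came next with Foxo4 at 33.0 ± 2.06 and Foxo3 at 21.5 ± 0.812, while Foxo1 stood at 5.36 ± 0.413 (42.9%). Insr, the insulin receptor gene, was at 17.9 ± 1.02, and Pik3ip1, whose product binds PI3K and inhibits it, at 13.9 ± 0.570. Irs2 (6.95 ± 0.451) and Sesn3 (6.94 ± 0.359) could not be ordered, since their ranges overlapped, whereas for every other pair of neighbours the 3 libraries lay apart. Irs1 was the lowest at 0.274 ± 0.00886, above only 7.2% of the tested genes.

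The promoter DNA of these genes was read for letters tied to FOXO binding. Windows of 300 bases, from 250 before to 50 after the RefSeq gene start (GRCm38.p6), matched 8 of the 10 genes. Searched on both strands were TGTTTAC (reverse GTAAACA), the forkhead core of the FOXO site, TGTTTTG (reverse CAAAACA), the core of the insulin response sequence, and the E-box CACGTG. These letters are found in 3.65%, 6.28% and 7.15% of all 32851 windows. Among the 8 windows, only that of Txnip held the forkhead core, and the insulin response core was found in those of Irs1, Irs2 and Ccng2. The 250 bases upstream of the start are printed for the first 3 of these genes as those that match and whose start lies at or upstream of the GENCODE vM21 start, with the matches in capitals and each read 5′ to 3′ on the strand of the gene.
Txnip, chr3:96557707-96557956, plus strand: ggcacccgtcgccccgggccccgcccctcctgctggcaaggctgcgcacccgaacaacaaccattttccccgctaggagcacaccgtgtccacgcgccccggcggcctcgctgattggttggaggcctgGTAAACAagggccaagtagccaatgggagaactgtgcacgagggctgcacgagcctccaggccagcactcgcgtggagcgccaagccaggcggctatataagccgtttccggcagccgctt
Irs1, chr1:82291440-82291689, minus strand: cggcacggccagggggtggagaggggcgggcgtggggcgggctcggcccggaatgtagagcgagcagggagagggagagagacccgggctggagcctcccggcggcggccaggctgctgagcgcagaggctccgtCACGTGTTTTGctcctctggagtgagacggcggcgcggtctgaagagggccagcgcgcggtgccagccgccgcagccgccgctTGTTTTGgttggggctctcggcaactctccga
Irs2, chr8:11008930-11009179, minus strand: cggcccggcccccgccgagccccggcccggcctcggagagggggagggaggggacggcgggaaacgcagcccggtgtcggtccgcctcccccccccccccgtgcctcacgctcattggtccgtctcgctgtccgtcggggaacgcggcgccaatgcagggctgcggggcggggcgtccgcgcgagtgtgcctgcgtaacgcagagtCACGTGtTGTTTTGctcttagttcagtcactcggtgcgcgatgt
In Txnip the reverse form of the forkhead core began 121 bases before the start. In Irs1 an E-box and an insulin response core shared 2 letters, the core beginning 111 bases before the start, and a second core began at 32 bases. In Irs2 the E-box began 44 bases and the core 37 bases before the start, 1 base apart. In Ccng2 the reverse form of the insulin response core began 16 bases before the start. The RefSeq start lies 471 bases upstream of the GENCODE vM21 start in Irs2 and 23 bases upstream in Irs1, but 1234 bases downstream in Sesn3, 330 in Pik3ip1 and 316 in Ccng2. The windows of these last 3 genes therefore lie inside the annotated genes, and the DNA before their GENCODE starts was not searched. A match is a run of letters and not a shown binding site.

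**Figure D1:**
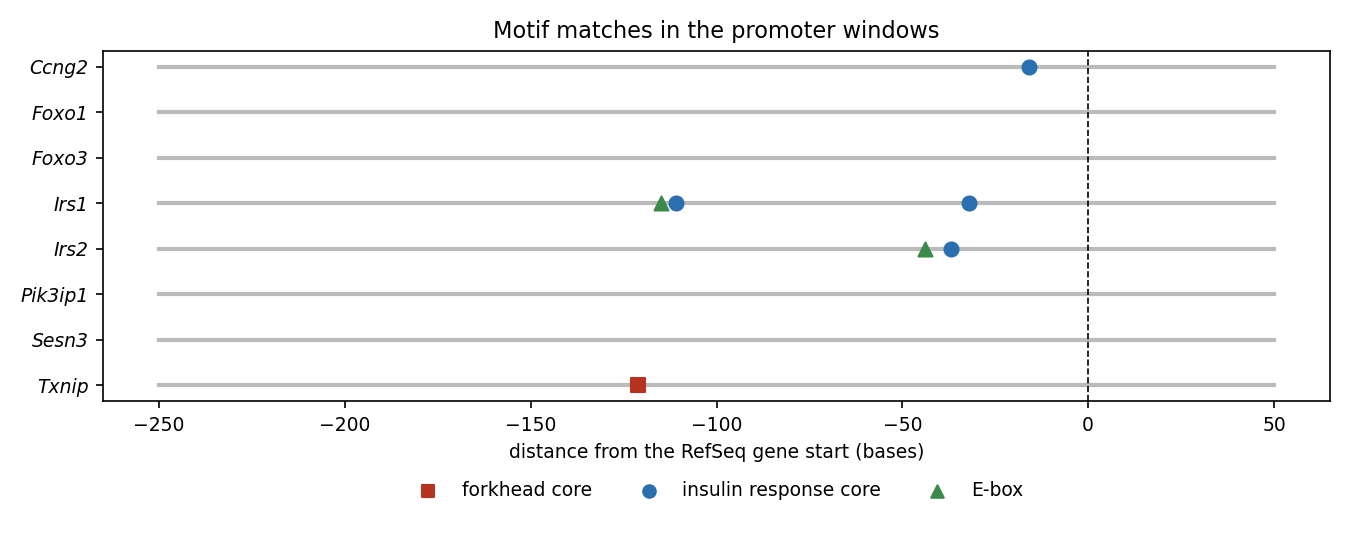
Motif matches in the 300-base promoter windows of 8 genes, by distance in bases from the RefSeq gene start (dashed line). The gray lines are the windows, and markers stand at the first base of each match: 1 forkhead core in Txnip, insulin response cores in Ccng2, Irs1 and Irs2, and E-boxes in Irs1 and Irs2, with no match in the other 4 windows.

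Each time point was compared with 0 h by the edgeR quasi-likelihood test over all 11373 genes, to ask whether the 10 genes changed. The Benjamini-Hochberg adjusted p-value of that test is given as FDR. The 10 include the FOXO genes themselves, whose mRNA does not measure the control of FOXO proteins. At 12 h 6 of the 10 genes passed an FDR of 0.05. Foxo4, Irs2, Insr, Txnip and Sesn3 fell and Ccng2 rose. Over all tested genes 25.5% passed, 11.9% lower and 13.6% higher, so 5 falls in 10 genes stand beside a background of 11.9%. The 10 genes were chosen with earlier results of these data known, which limits what this contrast can show. At 24 h 3 genes passed, all lower (Foxo4, Insr and Sesn3), against 7.76% lower and 9.67% higher over all genes. The libraries of the groups did not overlap for 6 genes at 12 h, 5 lower and 1 higher. Over all genes 38.4% did not overlap, 18.5% lower and 19.9% higher. These 6 differ from those that passed at 12 h: Irs1 did not overlap but did not pass, and Insr passed but overlapped. At 24 h the libraries did not overlap for 5 genes, 4 lower and 1 higher, against 35.5%, 17.9% lower and 17.6% higher. None of the 10 changed by 1.5-fold at either time, and 2.29% of tested genes at 12 h and 2.27% at 24 h both passed and changed by 1.5-fold. The median log2 fold change of the 10 genes was -0.20 at 12 h and -0.071 at 24 h, while that of all tested genes was -0.0028 and -0.0065. When the 3 time points were compared at once, the 6 genes that passed at 12 h passed again, against 27.4% of all genes. Both comparisons share the 0 h libraries, and 0 h replicate 1 carried part of the count: without it 4 genes passed at 12 h (Ccng2, Foxo4, Insr and Sesn3) and 1 at 24 h (Sesn3). Without 12 h replicate 3, the library that stood apart, the same 6 genes passed at 12 h. In a bulk sample, less RNA per cell cannot be told apart from fewer cells that make it.

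**Figure D2:**
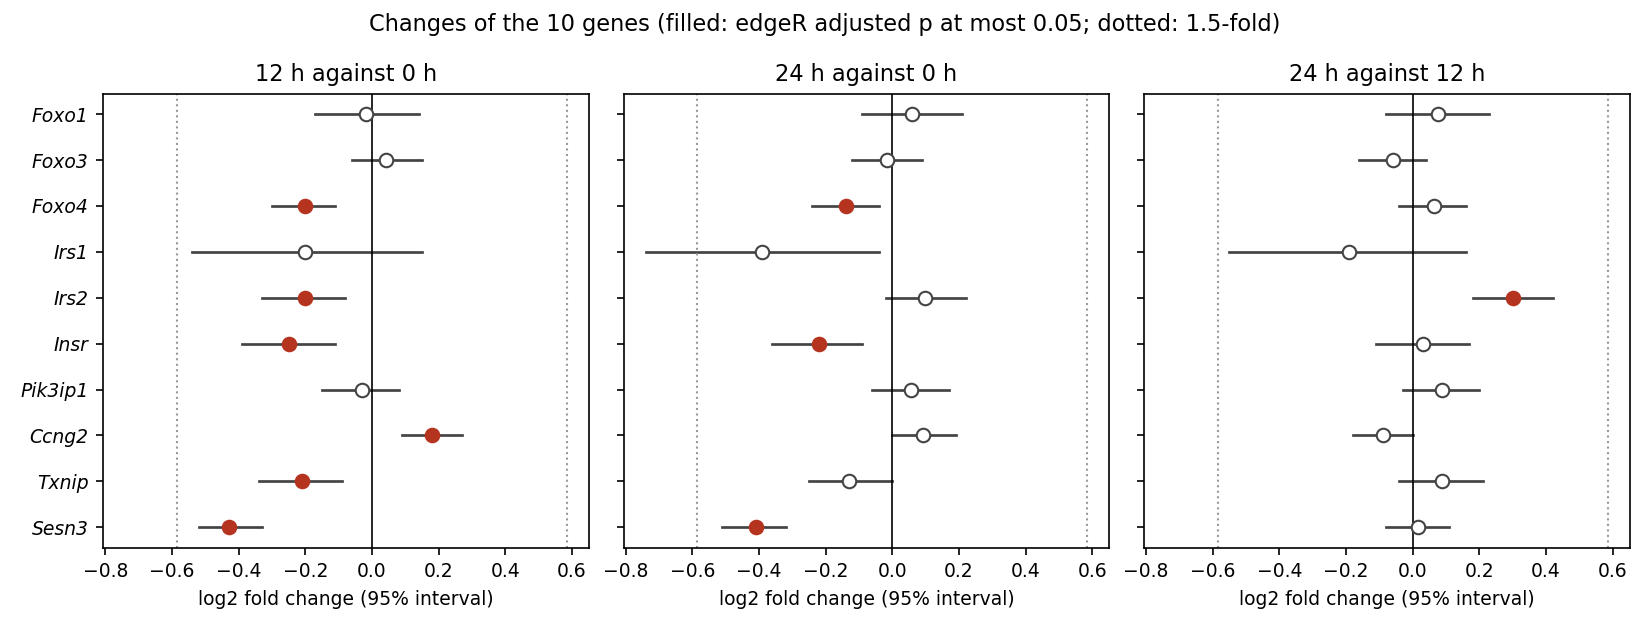
Log2 fold changes (x axis) of the 10 genes (y axis) with 95% intervals in 3 comparisons, from edgeR over 9 libraries; filled points passed an adjusted p of 0.05 and dotted lines mark 1.5-fold. At 12 h Sesn3 lies farthest left at -0.43 and Ccng2 is the filled point right of 0, and no point reaches a dotted line.

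The FOXO factors themselves were taken first. Foxo4 (ENSMUSG00000042903.8, GRCm38 chromosome X, 101254528 to 101260873) was 123, 113 and 109 CPM at 0 h, 104, 99.7 and 94.7 at 12 h, and 104 in each of the 3 libraries at 24 h. Every later library lay below every 0 h library. On the log2 scale it changed by -0.20 ± 0.047 at 12 h (SE, edgeR FDR = 0.00399) and -0.14 ± 0.047 at 24 h (SE, edgeR FDR = 0.0464). The 24 h fall was close to the threshold. It did not pass in 6 of 9 fits lacking a single library, without 0 h replicate 1 (-0.091) or 2 (-0.15), 12 h replicate 2 (-0.14) or 24 h replicate 1 (-0.14), 2 (-0.13) or 3 (-0.14), or under DESeq2 size factors (edgeR FDR = 0.0526) or a filter at 1 CPM (edgeR FDR = 0.0579), and its adjusted p ranged from 0.0193 to 0.202 over all alternatives.

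Foxo3 (ENSMUSG00000048756.11, chromosome 10, 42181841 to 42276755), the most studied FOXO factor in cell death and quiescence, lay between 156 and 180 CPM in all 9 libraries. Its log2 fold changes were 0.043 at 12 h (95% interval -0.06 to 0.15) and -0.016 at 24 h (-0.12 to 0.09), with edgeR FDR of 0.558 and 0.867. Foxo1 (ENSMUSG00000044167.6, chromosome 3, 52268336 to 52353221), the main FOXO factor of insulin responses in liver, ranged from 42 to 51.6 CPM. It changed by -0.018 at 12 h (-0.17 to 0.14) and 0.059 at 24 h (-0.09 to 0.21), with edgeR FDR of 0.888 and 0.639. For both genes the groups overlapped, and the intervals leave room for changes of up to 0.15 and 0.21 on the log2 scale. A gene on the opposite strand covers 7.78% of the exonic bases of Foxo1, and whether reads were counted by strand was not given in the sources used here.

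Within the family, Foxo4 gave the largest share of FOXO RNA per kb of exon, 55.1% ± 0.687 at 0 h, 51.0% ± 2.79 at 12 h and 52.7% ± 1.09 at 24 h. Foxo3 gave 35.9% ± 0.810, 39.5% ± 2.10 and 37.5% ± 0.820, and Foxo1 8.96% ± 0.210, 9.44% ± 0.713 and 9.83% ± 0.679. The summed FOXO level was 59.8 ± 3.19 CPM per kb at 0 h, 56.0 ± 1.49 at 12 h and 56.7 ± 1.04 at 24 h, and its ranges at 0 h (56.8 to 63.2) overlapped those at 12 h (54.3 to 56.9) and 24 h (55.9 to 57.9). The other member, Foxo6, had at most 2 counts in any library and was not tested.

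The insulin receptor and its adaptors carry growth factor signals to PI3K and are raised by FOXO factors when that signal is weak. Insr (ENSMUSG00000005534.10, chromosome 8, 3122061 to 3279617) was 246, 260 and 232 CPM at 0 h, 204, 183 and 233 at 12 h and 202, 218 and 212 at 24 h. The 24 h libraries lay below all those at 0 h, and at 12 h only replicate 3 reached the 0 h range. On the log2 scale it changed by -0.25 ± 0.065 at 12 h (SE, edgeR FDR = 0.00888) and -0.22 ± 0.065 at 24 h (SE, edgeR FDR = 0.0246). The 12 h fall passed in all 9 fits that left out 1 library, with values from -0.34 to -0.17. At 24 h it did not pass without 0 h replicate 1 (-0.22) or 2 (-0.18), or 24 h replicate 1 (-0.19) or 3 (-0.22). Its paralog Igf1r, the IGF1 receptor, did not pass at 12 h (-0.19, edgeR FDR = 0.0668) or at 24 h (-0.16, edgeR FDR = 0.154). It passed at 12 h under total counts (-0.21), with no filter (-0.19) and without 0 h replicate 3 (-0.23) or 12 h replicate 3 (-0.30), and at 24 h with no filter, in a fit of the 2 groups alone and without 12 h replicate 3 (-0.16 in each). Insr made up 59.6% ± 0.607 of the family level per kb at 0 h, 58.6% ± 0.550 at 12 h and 58.6% ± 0.881 at 24 h. The third receptor, Insrr, had at most 2 counts in any library.

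Irs2 (ENSMUSG00000038894.7, chromosome 8, 10984681 to 11008458), the adaptor whose promoter is printed above, fell at 12 h and was higher again at 24 h. It was 47.2, 41.9 and 42.7 CPM at 0 h, 36.6, 37.1 and 40.9 at 12 h and 48.3, 48.2 and 44.5 at 24 h. All 12 h libraries lay below all those at 0 h and at 24 h, while the 0 and 24 h libraries overlapped. The log2 change came to -0.20 ± 0.059 at 12 h (SE, edgeR FDR = 0.0189) and 0.099 at 24 h (edgeR FDR = 0.276). Compared directly, Irs2 was higher at 24 h than at 12 h by 0.30 ± 0.059 (SE, edgeR FDR = 0.00741), and was the only one of the 10 genes to pass there, where 5.03% of all tested genes passed, 1.97% higher and 3.06% lower. It was also the only one whose 12 and 24 h libraries did not overlap, as 25.0% of all genes did not, 11.4% higher and 13.6% lower. The 12 h fall did not pass without 0 h replicate 1 (-0.15) or 12 h replicate 1 (-0.17) or 2 (-0.18), and the later rise did not pass without 12 h replicate 1 (0.27, edgeR FDR = 0.0521).

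Irs1 (ENSMUSG00000055980.2, chromosome 1, 82233101 to 82291416) encodes the related adaptor and had between 53 and 97 counts per library, which makes it the least precise of the 10. Its level was 2.41 to 2.56 CPM at 0 h, 1.90 to 2.35 at 12 h and 1.74 to 2.03 at 24 h. Both later groups lay below the 0 h group, and yet neither change passed: the log2 fold change was -0.20 at 12 h (95% interval -0.54 to 0.15, edgeR FDR = 0.414) and -0.39 at 24 h (-0.74 to -0.04, edgeR FDR = 0.117). A gene on the opposite strand covers 30.9% of its exonic bases, and reads of both genes cannot be told apart where strand is not used. Per kb of exon Irs2 gave 96.2% ± 0.343 of the family level at 0 h, 96.1% ± 0.402 at 12 h and 97.3% ± 0.280 at 24 h, and Irs4 had at most 2 counts in any library.

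Pik3ip1 (ENSMUSG00000034614.14, chromosome 11, 3330401 to 3342971) acts on PI3K itself. It ranged from 54.7 to 65.5 CPM over the 9 libraries, with overlapping groups. The log2 fold change was -0.031 at 12 h (95% interval -0.15 to 0.08, edgeR FDR = 0.724) and 0.056 at 24 h (-0.06 to 0.17, edgeR FDR = 0.542), so no change beyond 0.17 in either direction lay within the intervals.

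The last 3 genes act on growth and metabolism. Sesn3 (ENSMUSG00000032009.8, chromosome 9, 14275067 to 14333101) encodes a sestrin, which restrains mTORC1 and supports AKT. It was 99.7, 110 and 108 CPM at 0 h, 78.0, 76.3 and 82.2 at 12 h and 78.7, 80.2 and 80.0 at 24 h. All 6 later libraries lay well below the 3 at 0 h, and the 12 and 24 h libraries overlapped. Sesn3 fell by 25.7% at 12 h, a log2 fold change of -0.43 ± 0.044 (SE, edgeR FDR = 4.55e-06), and by 24.9% at 24 h, -0.41 ± 0.044 (SE, edgeR FDR = 5.96e-06). Only 0.686% of all tested genes had a smaller p at 12 h and 0.835% at 24 h. Between 12 and 24 h it differed by 0.015 (95% interval -0.08 to 0.11, edgeR FDR = 0.891). Both falls passed in every alternative run, with values from -0.47 to -0.39 at 12 h and from -0.45 to -0.38 at 24 h.

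Of the other sestrins, Sesn1 fell like Sesn3 and Sesn2 rose. Sesn1 was 123, 119 and 119 CPM at 0 h, 97.0, 96.5 and 91.8 at 12 h and 98.6, 103 and 102 at 24 h, and fell by 0.33 at 12 h (edgeR FDR = 1.07e-05) and 0.24 at 24 h (edgeR FDR = 0.000274) on the log2 scale. Sesn2, which is also induced by the stress factor ATF4, was 29.2, 31.8 and 27.1 CPM at 0 h, 40.6, 37.4 and 48.6 at 12 h and 39.3, 38.5 and 38.5 at 24 h. It rose by 0.52 (edgeR FDR = 0.000149) and 0.40 (edgeR FDR = 0.00209). Per kb of exon, Sesn3 made up 15.2% ± 0.839 of the summed sestrin level at 0 h, then 12.5% ± 0.135 at 12 h and 12.5% ± 0.0389 at 24 h. Sesn1 went from 66.2% ± 1.45 to 58.0% ± 3.27 and 60.9% ± 0.703, and Sesn2 from 18.6% ± 1.20 to 29.4% ± 3.16 and 26.7% ± 0.669. The sum itself was 45.5 ± 0.767 CPM per kb at 0 h, 41.2 ± 1.22 at 12 h and 41.8 ± 0.559 at 24 h, with the later ranges (40.0 to 42.4 and 41.2 to 42.3) below the range at 0 h (44.7 to 46.2).

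**Figure D3:**
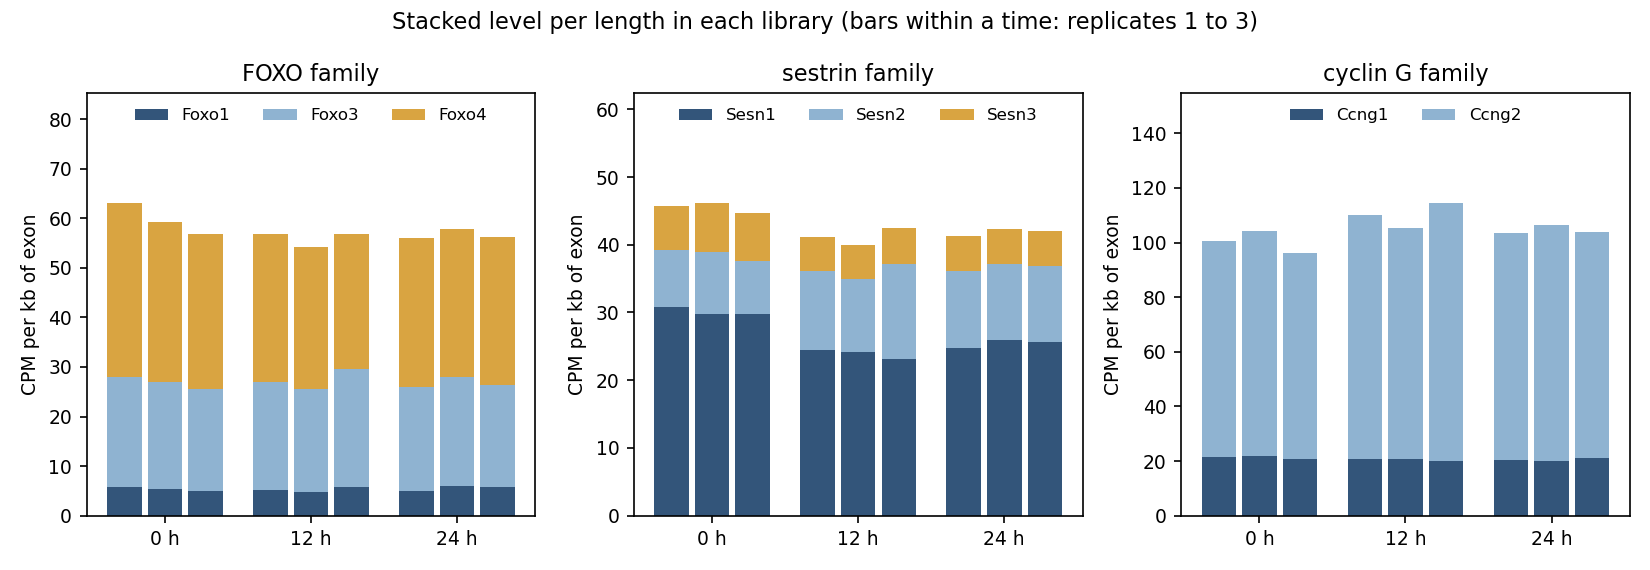
Stacked levels in CPM per kb of exon of the FOXO, sestrin and cyclin G genes in each of the 9 libraries (x axis, replicates 1 to 3 within each time). The Sesn1 and Sesn3 segments are shorter and the Sesn2 segment taller in all 12 and 24 h libraries than at 0 h, and Ccng2 makes up 78.7% of the cyclin G level at 0 h.

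Txnip (ENSMUSG00000038393.14, chromosome 3, 96557957 to 96561883), whose promoter held the forkhead core, was 633, 530 and 518 CPM at 0 h, 504, 473 and 472 at 12 h and 524, 522 and 493 at 24 h. Replicate 1 at 0 h stood well above the rest. All 12 h libraries lay below those at 0 h, and the 24 h libraries overlapped them. The log2 change came to -0.21 ± 0.059 at 12 h (SE, edgeR FDR = 0.0132) and -0.13 ± 0.059 at 24 h (SE, edgeR FDR = 0.157). Without 0 h replicate 1 the 12 h value was -0.12 and did not pass (edgeR FDR = 0.0501), and the 24 h value was -0.03. A gene on the opposite strand covers 19.4% of its exonic bases.

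Genes that work with Txnip were read beside it. Slc2a1, the glucose transporter GLUT1, rose by 0.39 at 12 h (edgeR FDR = 4.32e-05), from 423, 424 and 379 CPM at 0 h to 535, 494 and 581, and was lower again at 24 h than at 12 h by 0.28 (edgeR FDR = 0.00597). Its 24 h level differed from 0 h by 0.12 (edgeR FDR = 0.147), which passed with no filter and in a fit of the 2 groups alone. Mlxip, which with its partner Mlx drives Txnip transcription when glucose is plentiful, fell by 0.19 at 12 h (edgeR FDR = 0.0126). That call was lost without 0 h replicate 2 (-0.14) or 12 h replicate 1 (-0.16). Mlx differed by 0.025 at 12 h (edgeR FDR = 0.799) and thioredoxin, Txn1, by 0.020 (edgeR FDR = 0.699). Of the exonic bases of Mlx, 19.3% are covered by a gene on the opposite strand. Among the arrestin-domain relatives of Txnip, Arrdc2 (-0.22) and Arrdc1 (-0.15) fell and Arrdc3 (0.26) rose at 12 h, with edgeR FDR of 0.00891, 0.0242 and 0.021, and Arrdc4 differed by -0.028 (edgeR FDR = 0.825). The rise of Arrdc3 was 0.16 and did not pass without 0 h replicate 3, and was lost without 12 h replicate 1 (0.24). The fall of Arrdc1 was lost without 0 h replicate 1 (-0.15) or 2 (-0.13) or 12 h replicate 2 (-0.15) or 3 (-0.11).

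Ccng2 (ENSMUSG00000029385.14, chromosome 5, 93267257 to 93276231) went the other way from most of the 10. It was 433, 450 and 410 CPM at 0 h, 488, 461 and 516 at 12 h and 454, 473 and 451 at 24 h. All libraries at 12 h and at 24 h lay above those at 0 h, though the lowest at 24 h cleared the highest at 0 h by little. The rise was 0.18 ± 0.044 at 12 h (SE, edgeR FDR = 0.00644), or 13.3%, and passed in every alternative run, while the 24 h change of 0.092 did not pass (edgeR FDR = 0.173). Its paralog Ccng1, a target of p53, differed by -0.062 at both times (edgeR FDR = 0.286 and 0.321). At 12 h, Ccng2 made up 81.4% ± 1.16 of the cyclin G level per kb, against 78.7% ± 0.435 at 0 h.

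**Figure D4:**
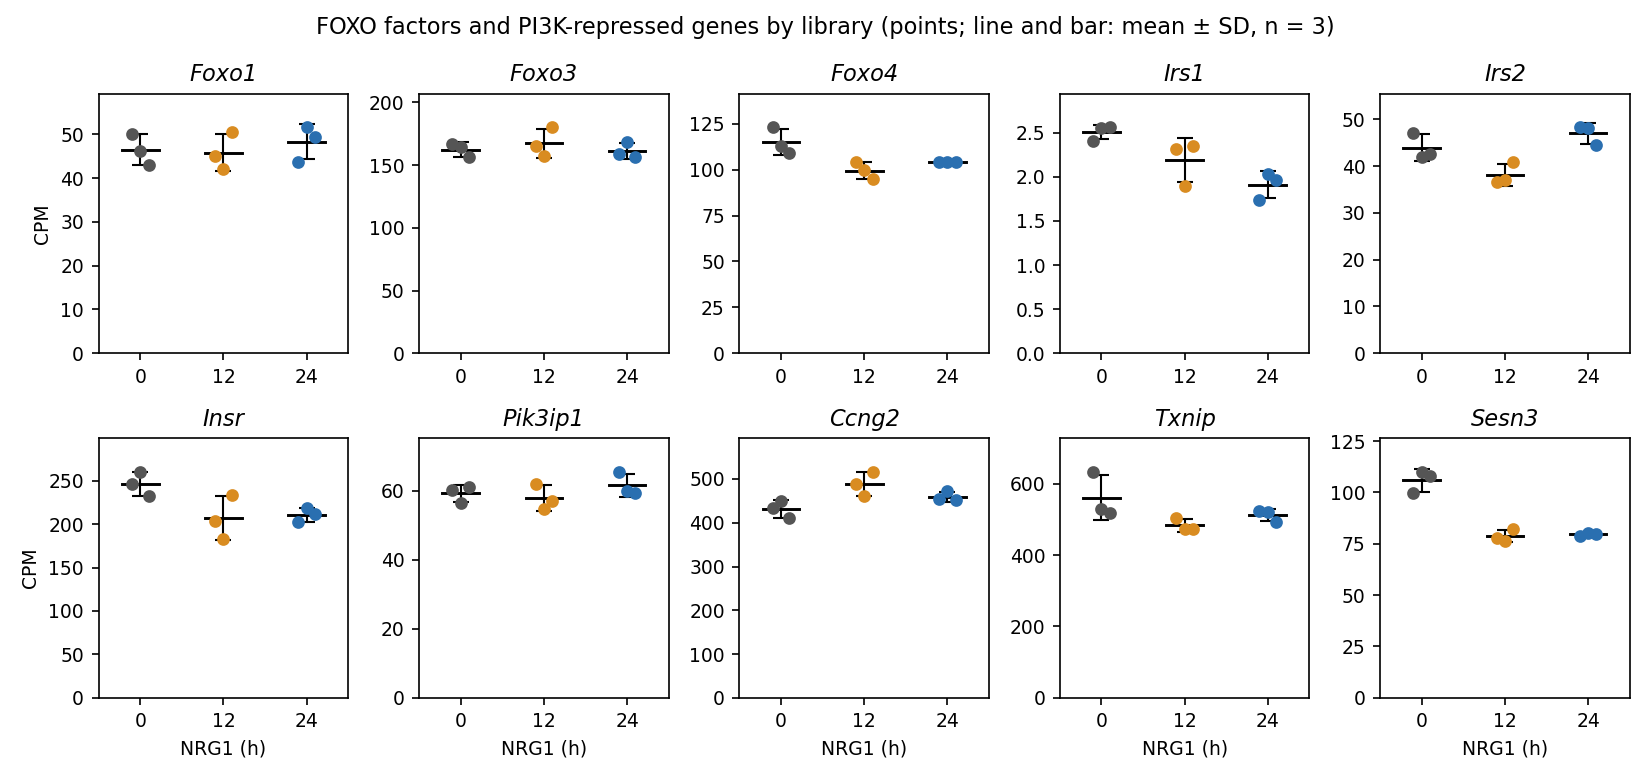
CPM (y axis, from 0) of the 10 genes in each library at 0, 12 and 24 h of NRG1 (x axis), with the mean and SD of 3 libraries. The Sesn3 points at 12 and 24 h, 76.3 to 82.2 CPM, lie below all 0 h points, Irs2 dips at 12 h, and Foxo1, Foxo3 and Pik3ip1 overlap at all times.

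To see whether other reported FOXO targets shared these changes, 32 further genes were listed, of which 30 were tested. This list too was made with earlier results of these data known. At 12 h 10 rose and 6 fell, so 53.3% passed against 25.5% of all genes, 13.6% higher and 11.9% lower. The median log2 fold change was 0.018. At 24 h 6 rose and 3 fell, or 30.0% against 17.4%, 9.67% higher and 7.76% lower, with a median of -0.029. The changes were therefore split in direction within the list. With 1 library left out, 6 to 13 genes passed at 24 h, 6 without 0 h replicate 1 and 13 without 12 h replicate 3. The 4 largest falls that passed were those of Tnfsf10, Pink1, Fbxo32 and Bcl2l11. Tnfsf10, the death ligand TRAIL, was 4.83, 4.95 and 3.72 CPM at 0 h, 2.63, 1.99 and 2.54 at 12 h and 2.91, 2.75 and 2.52 at 24 h, and fell by 0.91 at 12 h (edgeR FDR = 0.000503) and 0.72 at 24 h (edgeR FDR = 0.00345). Pink1, a kinase that marks damaged mitochondria, was 82.2, 71.5 and 73.6 CPM at 0 h, 54.8, 51.8 and 49.5 at 12 h and 58.2, 54.8 and 52.5 at 24 h, and fell by 0.54 (edgeR FDR = 5.86e-06) and 0.46 (edgeR FDR = 2.61e-05). Fbxo32, the ubiquitin ligase atrogin-1, fell by 0.32 (edgeR FDR = 0.00866) and 0.39 (edgeR FDR = 0.0034). Bcl2l11, which encodes the death activator BIM, fell by 0.26 at 12 h (edgeR FDR = 0.00133) and was at -0.13 at 24 h (edgeR FDR = 0.0888). The later libraries of these 4 genes lay below all 0 h libraries.

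The 4 largest rises that passed at either time were those of Cdkn1a, Gadd45a, Bcl6 and Cdkn2d. Cdkn1a, the cell cycle inhibitor p21 and a p53 target, was 49.2, 52.8 and 40.1 CPM at 0 h, 82.8, 74.0 and 98.6 at 12 h and 54.3, 57.7 and 58.4 at 24 h. It rose by 0.84 at 12 h (edgeR FDR = 7.82e-06) and was at 0.26 at 24 h (edgeR FDR = 0.0653), which passed without 0 h replicate 2 (0.36) or 12 h replicate 2 or 3 (0.27 in each), and under total counts, no filter or a fit of the 2 groups alone (0.27 in each). At 24 h it was lower than at 12 h by 0.58 (edgeR FDR = 0.00152). Gadd45a, a DNA damage and stress gene, rose by 0.55 at 12 h (edgeR FDR = 0.00213) and 0.41 at 24 h (edgeR FDR = 0.0214). The 24 h rise was lost without 0 h replicate 1 (0.30) or 24 h replicate 2 (0.39) or 3 (0.41), and a gene on the opposite strand covers 19.1% of its exonic bases. Cdkn2d, the inhibitor p19, rose by 0.35 (edgeR FDR = 0.00232) and 0.37 (edgeR FDR = 0.00181). Bcl6, a transcriptional repressor, was at 0.35 at 12 h (edgeR FDR = 0.0698) and rose by 0.48 at 24 h (edgeR FDR = 0.0193). Its 24 h rise was lost under DESeq2 (0.50) and without 0 h replicate 1 (0.41) or 3 (0.45) or 24 h replicate 2 (0.40), and its 12 h value passed without 0 h replicate 2 or 12 h replicate 1 (0.49 in each), with no filter (0.35) and with the replicate block (0.36). Cdkn1b, the inhibitor p27 and a classical FOXO target, differed by -0.011 at 12 h and -0.047 at 24 h (edgeR FDR = 0.874 and 0.45; chosen after its values were seen).

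The machinery between the receptors and FOXO was read next. Of 20 core genes of PI3K, AKT and the mTOR complexes, 19 were tested. At 12 h 2 rose and 4 fell, 31.6% against 25.5% of all genes, and at 24 h 1 rose and 1 fell, 10.5% against 17.4%, with medians of -0.009 and 0.018. Pik3r1, the regulatory subunit of PI3K, was 29.0, 27.5 and 26.8 CPM at 0 h and 21.5, 22.3 and 24.1 at 12 h, a fall of 0.30 (edgeR FDR = 0.00182), and it was at -0.18 at 24 h (edgeR FDR = 0.0518), which passed without 12 h replicate 3 and in a fit of the 2 groups alone (-0.17 in each). Gab2, a docking protein that binds PI3K, fell by 0.25 at both times (edgeR FDR = 0.00047 and 0.000596). Mtor fell by 0.24 at 12 h (edgeR FDR = 0.00383) and was at -0.14 at 24 h (edgeR FDR = 0.0882), which passed without 12 h replicate 3 and with no filter (-0.14 in each). Pik3ca, a catalytic subunit, fell by 0.12 at 12 h (edgeR FDR = 0.0493), a call lost under DESeq2 and in 7 of 9 fits lacking a single library, all except those without 12 h replicate 3 or 24 h replicate 1, with values from -0.13 to -0.091. Rheb, the activator of mTORC1, rose by 0.16 at 12 h (edgeR FDR = 0.0102) and 0.12 at 24 h (edgeR FDR = 0.0452), the latter lost without 0 h replicate 1 (0.092) or any 1 of the 24 h libraries (0.12 to 0.14) and under total counts (0.13). Akt2 rose by 0.13 at 12 h (edgeR FDR = 0.0245), lost without 0 h replicate 2 or 12 h replicate 2 (0.10 in each) and in a fit of the 2 groups alone (0.12), and Akt1 differed by 0.013 (edgeR FDR = 0.865).

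Genes that hold the pathway back numbered 14, of which 11 were tested. At 12 h 1 rose and 2 fell (27.3% against 25.5% of all genes) and at 24 h 1 rose (9.09% against 17.4%), with medians of -0.002 and 0.029. Ddit4, an mTORC1 inhibitor that stress induces, was 655, 608 and 576 CPM at 0 h, 750, 666 and 735 at 12 h and 726, 700 and 697 at 24 h, and rose by 0.23 (edgeR FDR = 0.00259) and 0.21 (edgeR FDR = 0.00711). Tsc2, which keeps Rheb inactive, fell by 0.20 at 12 h (edgeR FDR = 0.00138), and Deptor, which binds mTOR, by 0.13 (edgeR FDR = 0.0203), the latter lost without 0 h replicate 2 (-0.10) or 12 h replicate 1 (-0.13) or 2 (-0.11). Of the 17 paralogs and partners of the 10 genes, 13 were tested. At 12 h 4 rose and 4 fell, 61.5% against 25.5% of all genes. At 24 h 1 rose and 1 fell, 15.4% against 17.4%. They include the sestrins and the Txnip partners given above and Txnrd1, thioredoxin reductase, whose rise of 0.13 at 12 h (edgeR FDR = 0.047) was lost in 7 of 9 fits lacking a single library, all except those without 0 h replicate 3 (0.20) or 24 h replicate 2, and also under total counts (0.12) and in a fit of the 2 groups alone (0.13).

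**Figure D5:**
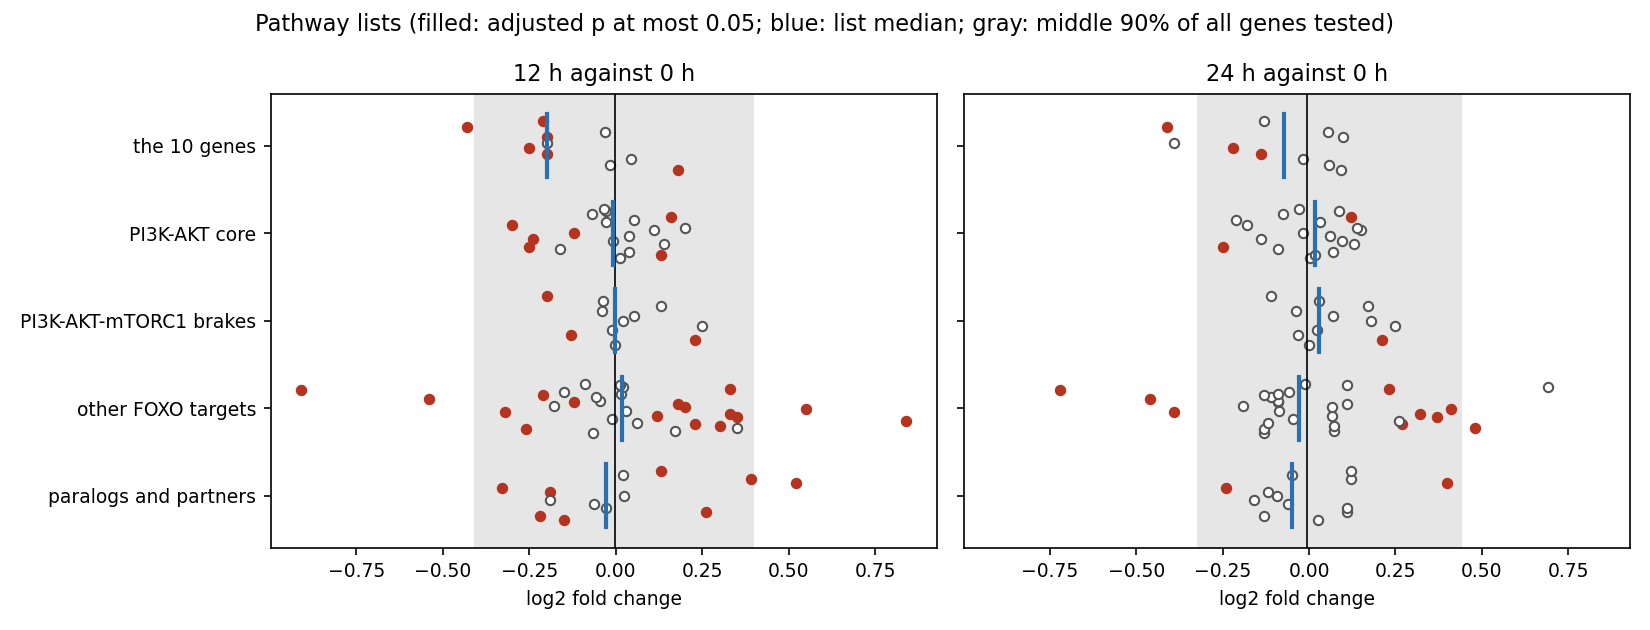
Log2 fold changes (x axis) at 12 and 24 h against 0 h for the tested genes of 5 lists (y axis), with filled points for an adjusted p of at most 0.05, blue bars for list medians and gray for the middle 90% of all tested genes. The 10 genes have a median of -0.20 at 12 h, while the other lists have medians near 0 with filled points on both sides.

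The 3 genes with the largest edgeR F when the 3 time points were compared at once were Sesn3, Irs2 and Foxo4. For each, the tested genes outside the 10 whose log2 CPM followed it most closely over the 9 libraries were found. This is a description over 11363 candidates that share depth and library with them. Sesn3 was followed by Zfp638 and Edem3 (Pearson r = 0.985 in each), Foxo4 by Rnf169 (0.983), and Irs2 by Dmwd (0.973) and Ttn (0.966).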

How the data were processed

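RNA from 9 MyC-CaP samples was sequenced as mRNA libraries with paired-end 150 bp reads. The authors trimmed reads with Cutadapt, mapped them by STAR to GRCm38.p6 (GENCODE) and obtained gene counts from featureCounts. The deposited values are raw counts per gene for 15552 protein-coding genes, not normalized, and the counting settings for strand and multi-mapping were not given in the sources used here.

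The labelled treatment times defined the groups. Genes were kept by filterByExpr (11373 genes), scaled by TMM and fitted over all 9 libraries with edgeR 4.0.16 (R 4.3.3) by glmQLFit, and pairs of time points were compared with glmQLFTest, two-sided, with Benjamini-Hochberg adjustment over all genes. Genes passed at an adjusted p of 0.05, and a stricter call also asked for a 1.5-fold change. Log2 CPM used a prior count of 2. Exon lengths and overlaps came from GENCODE vM21 (GRCm38), whose coordinates for the 10 genes equal those in the table, and promoter windows from RefSeq. Among the genes named, opposite-strand genes also cover 7.68% of the exonic bases of Cdkn1a and 7.2% of those of Tsc2. Same-strand genes cover 6.7% of those of Pink1. Alternatives were DESeq2 1.42.0, other scalings and filters, pairwise fits, a replicate block and leaving out each library. The procedures were also run on simulated counts with changes placed at 12 h only. The outcome is not reported here, and nothing is drawn from it.

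Replicates were called biological in the labels and plated in triplicate, so p-values measure only the spread between these samples, which may be technical. The replicate numbers were not treated as pairs, and whether they mark pairs was not known. The 10 genes and the lists were chosen with earlier results of these data known. Named were the 10 genes, up to 4 genes per list and direction that passed against 0 h, by largest change, and the 2 genes most correlated with each of the 3 with the largest F over the time points. Igf1r, Ccng1, Mlx, Txn1, Arrdc4, Akt1 and Cdkn1b fall outside this rule and were named after their values were seen. Some genes that entered these lists and rules are not reported here.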

Additional observations from a re-analysis of the deposited data

Results flagged for a closer look

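Of the genes named, 4 had effects at 12 and 24 h that differed when the 2 time points were compared directly by edgeR. Over all tested genes 5.03% passed in this comparison, 1.97% higher and 3.06% lower at 24 h. Many of the genes named were picked for their change against 0 h, so the count cannot be weighed against this share. Irs2 was higher at 24 h than at 12 h by 0.30 (adjusted p = 0.00741), Arrdc1 was higher by 0.18 (adjusted p = 0.0358), Cdkn1a differed by -0.58 (adjusted p = 0.00152) and Slc2a1 by -0.28 (adjusted p = 0.00597). The Arrdc1 call was lost in 5 of 9 fits lacking a single library, without 12 h replicate 2 (0.17) or 3 (0.14) or 24 h replicate 1 (0.16), 2 (0.18) or 3 (0.19). Each group held 3 libraries, too few to test single libraries as outliers.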

How the results depend on the processing

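Sesn3, Ccng2, Foxo4 and Insr passed at 12 h under every alternative, and among the 10 genes 454 of 480 alternative values kept direction and side of the threshold, 17 no longer passed, 1 newly passed (Txnip at 24 h with no filter, -0.12) and 8 changed sign. Left-out libraries gave 4 to 6 genes passing at 12 h, 1 to 3 at 24 h (1 when either of replicates 1 and 2 at 0 h, or of replicates 1 and 3 at 24 h, was absent), 0 to 1 between 12 and 24 h (0 without 12 h replicate 1) and 4 to 6 over the 3 time points. Sign changes came only from left-out libraries, and none of these values passed. Their ranges were -0.081 to 0.038 for Foxo1 and -0.002 to 0.085 for Foxo3 at 12 h, -0.042 to 0.009 for Foxo3 at 24 h, -0.084 to 0.007 for Pik3ip1 at 12 h, and, between 12 and 24 h, -0.046 to 0.12 for Insr and -0.004 to 0.04 for Sesn3. Akt2 at 24 h ranged from -0.012 to 0.041 and Pik3ca at 24 h from -0.037 to 0.029. At 24 h the PI3K-AKT core list gave 1 gene under total counts and 4 when only the 2 groups were fitted, the list of genes that hold the pathway back (brakes) gave 3 and the paralogs and partners 4 with no filter or with only the 2 groups, and the cause was not tested. The share of all genes passing in these fits is not given here. With no filter some adjusted p-values were far smaller, as for Cdkn1a between 12 and 24 h (edgeR, 5.79e-26 against 0.00152). Calls gained only with no filter, also those named above, are therefore weak. Left-out libraries gave the core list 1 to 5 at 24 h and 0 to 1 between 12 and 24 h, and the brakes 1 to 3 and 0 to 1. The other FOXO targets gave 6 to 13 at 24 h and 2 to 4 between 12 and 24 h. The paralogs and partners gave 5 to 8 at 12 h and 1 to 2 between 12 and 24 h. The highest of these core and brake counts at 24 h came without 12 h replicate 3.

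Same-numbered replicates deviated together with r from -0.0744 to 0.131 and differently numbered ones with r from -0.125 to 0.12. The numbers were therefore not taken as pairs. With the replicate block 6, 3 and 1 of the 10 genes passed at 12 h, at 24 h and between them, 6 over the 3 time points, and 2956, 2039 and 609 of all genes against 2896, 1982 and 572. Irs1, at 53 to 97 counts, is the gene where depth limits what can be seen.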
